A study of Mus musculus with 24 samples.

Results

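Chemokines and inflammatory cytokines are the secreted signals described here: the chemokine ligands Ccl2, Ccl5, Ccl7, Cxcl1, Cxcl5, Cxcl10 and Cxcl12, the cytokine Il6 and the interleukin-1 receptor antagonist Il1rn. Every probe set annotated with a single symbol that was 1 of these 9 genes was taken, which gave 12 of the 12488 probe sets on the array. Cxcl12 was read by 3 probe sets (100112_at, 160511_at and 162234_f_at), Cxcl1 by 2 (95348_at and 95349_g_at), and the other 7 genes by 1 each. The cells were mouse fat cells in primary culture, hybridised to Affymetrix U74Av2 arrays with 1 array per sample. The groups were brown fat cells at day 7 after isolation (differentiated, n = 5), brown fat cells at day 4 (non differentiated, n = 5), white fat cells at day 7 (n = 6) and white fat cells at day 4 (n = 8). The labels give no strain, sex, age, allele, fat depot or added agent for any group, and do not say how many animals or cultures stand behind the arrays, so the p-values reflect array-to-array spread that may be purely technical. An array is referred to by its group and its labelled number. The series was designed to compare pre- and mature adipocytes of both kinds of fat.

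Chemokines are small secreted proteins that draw leukocytes towards their source through receptors on those cells. Ligands of the CC class such as Ccl2 and Ccl7 attract monocytes, the CXC ligands Cxcl1 and Cxcl5 attract neutrophils, Cxcl10 is an interferon-induced ligand for activated T cells, and Cxcl12 is made by stromal cells and retains cells that carry Cxcr4. Il6 is a pleiotropic cytokine of inflamed tissue, and Il1rn is a secreted antagonist that occupies the interleukin-1 receptor without signalling. In fat, preadipocytes and stromal cells as well as macrophages are known sources of several of these signals, and many of the inducible ones are transcribed under NF-kB.

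Signal was the deposited MAS5 intensity on a linear scale, brought to a common trimmed mean of 150 on each array, with values under 8.21 set to that floor before log2 was taken. Differences are on the log2 scale, ± is the standard error of the fit unless SD is written, and the adjusted p is that of limma with Benjamini-Hochberg adjustment over the 8397 probe sets tested, with a call at an adjusted p under 0.05. The number of arrays limits the precision. Adipoq, the fat cell hormone, had 4772 to 6306 in brown day 7, 1169 to 4959 in brown day 4, 4611 to 6336 in white day 7 and 732 to 3099 in white day 4 cells, so the day 4 cells labelled as non differentiated already carried this transcript. Zic1, a brown marker, had 58.4 to 119 on the 10 brown arrays and lay at the floor on all 14 white arrays, and Tcf21, a white marker, had 4.83 to 23.7 on the brown arrays and 239 to 471 on the white arrays. In these whole cultures, fewer cells of a type and less RNA per cell cannot be told apart.

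The upstream windows of 4 members are shown because they differ in the inflammatory motifs they hold. They are the 250 bases before the annotated start, read 5′ to 3′ on the gene's strand from RefSeq on build GRCm38.p6, at chr5:90890995-90891244 (+) for Cxcl1, chr5:92348890-92349139 (-) for Cxcl10, chr5:30012864-30013113 (+) for Il6 and chr6:117168285-117168534 (+) for Cxcl12. Capitals mark matches on either strand, counted once where both strands match at the same bases, to GGNNNTTCC (NF-kB), GAAANNGAA (interferon-stimulated response element), TTGNNCAA (C/EBP) or TGANTCA (AP-1).
Cxcl1: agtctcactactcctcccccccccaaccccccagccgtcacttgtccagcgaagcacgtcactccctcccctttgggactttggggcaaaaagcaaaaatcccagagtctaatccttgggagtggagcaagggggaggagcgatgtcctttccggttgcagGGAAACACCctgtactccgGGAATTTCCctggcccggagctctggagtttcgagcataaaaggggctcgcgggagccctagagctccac
Cxcl10: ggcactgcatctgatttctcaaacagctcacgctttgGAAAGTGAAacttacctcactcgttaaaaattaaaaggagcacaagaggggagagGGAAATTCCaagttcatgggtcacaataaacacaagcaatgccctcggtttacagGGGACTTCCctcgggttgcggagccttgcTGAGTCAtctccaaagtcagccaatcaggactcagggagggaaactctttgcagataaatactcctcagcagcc
Il6: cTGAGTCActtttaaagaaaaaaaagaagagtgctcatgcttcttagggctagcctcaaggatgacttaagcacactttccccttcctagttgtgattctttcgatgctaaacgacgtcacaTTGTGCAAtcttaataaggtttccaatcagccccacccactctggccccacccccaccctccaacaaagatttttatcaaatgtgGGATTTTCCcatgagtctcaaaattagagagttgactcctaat
Cxcl12: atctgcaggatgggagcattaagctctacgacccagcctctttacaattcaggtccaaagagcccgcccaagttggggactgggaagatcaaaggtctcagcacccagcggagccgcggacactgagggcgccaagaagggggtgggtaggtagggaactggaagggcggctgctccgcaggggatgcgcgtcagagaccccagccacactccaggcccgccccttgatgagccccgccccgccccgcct

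The Cxcl1 window held 2 matches to the NF-kB letters, 1 of them on the opposite strand. The Cxcl10 window held 2 NF-kB matches, 1 interferon-stimulated response element and 1 AP-1 match. The Il6 window held 1 match each to the NF-kB, C/EBP and AP-1 letters. The Cxcl12 window held no match to any of the 4 motifs. Over 32851 windows of the same length, 15.7% held a match to the NF-kB letters, 7.13% to the interferon element, 5.65% to the C/EBP letters and 6.75% to the AP-1 letters. The windows are a description of sequence, and nothing about binding was measured. Windows of 5 of the 9 members were used, the fifth being Il1rn, which has 3 annotated starts and is not printed. Ccl2 and Ccl7 are neighbours on chromosome 11, Cxcl1, Cxcl5, Cxcl10 and Il6 lie on chromosome 5, Cxcl12 on chromosome 6 and Il1rn on chromosome 2.

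Of the 12 probe sets, 10 passed the filter on low signal (a value over the array's 40th percentile in 5 or more samples) and were tested, covering 7 genes. Ccl5 passed that level on 2 arrays and Cxcl10 on 0 arrays, so neither was tested in this fit. In brown cells at day 7 against day 4, 2 of the 10 probe sets were called, both higher, against 12.1% of all probe sets tested (6% higher). In white cells at day 7 against day 4, 3 of 10 were called, all lower, against 19% of all (10.6% lower). Between brown and white cells, 4 of 10 were called at day 4 against 23.0% of all, with 1 higher and 3 lower in brown (10.8% and 12.2% of all). At day 7, 5 of 10 were called against 25.2% of all, with 3 higher and 2 lower in brown (12.8% and 12.3% of all). Per gene, each by its probe set of highest mean signal, 1 of 7 was higher in brown day 7 than in brown day 4 cells and 2 of 7 were lower in white day 7 than in white day 4 cells, beside 6.48% and 10.4% of all genes. The members' median difference was -0.55 in brown and -0.44 in white cells, against 0.02 and 0.01 over all 6281 genes.

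**Figure D1:**
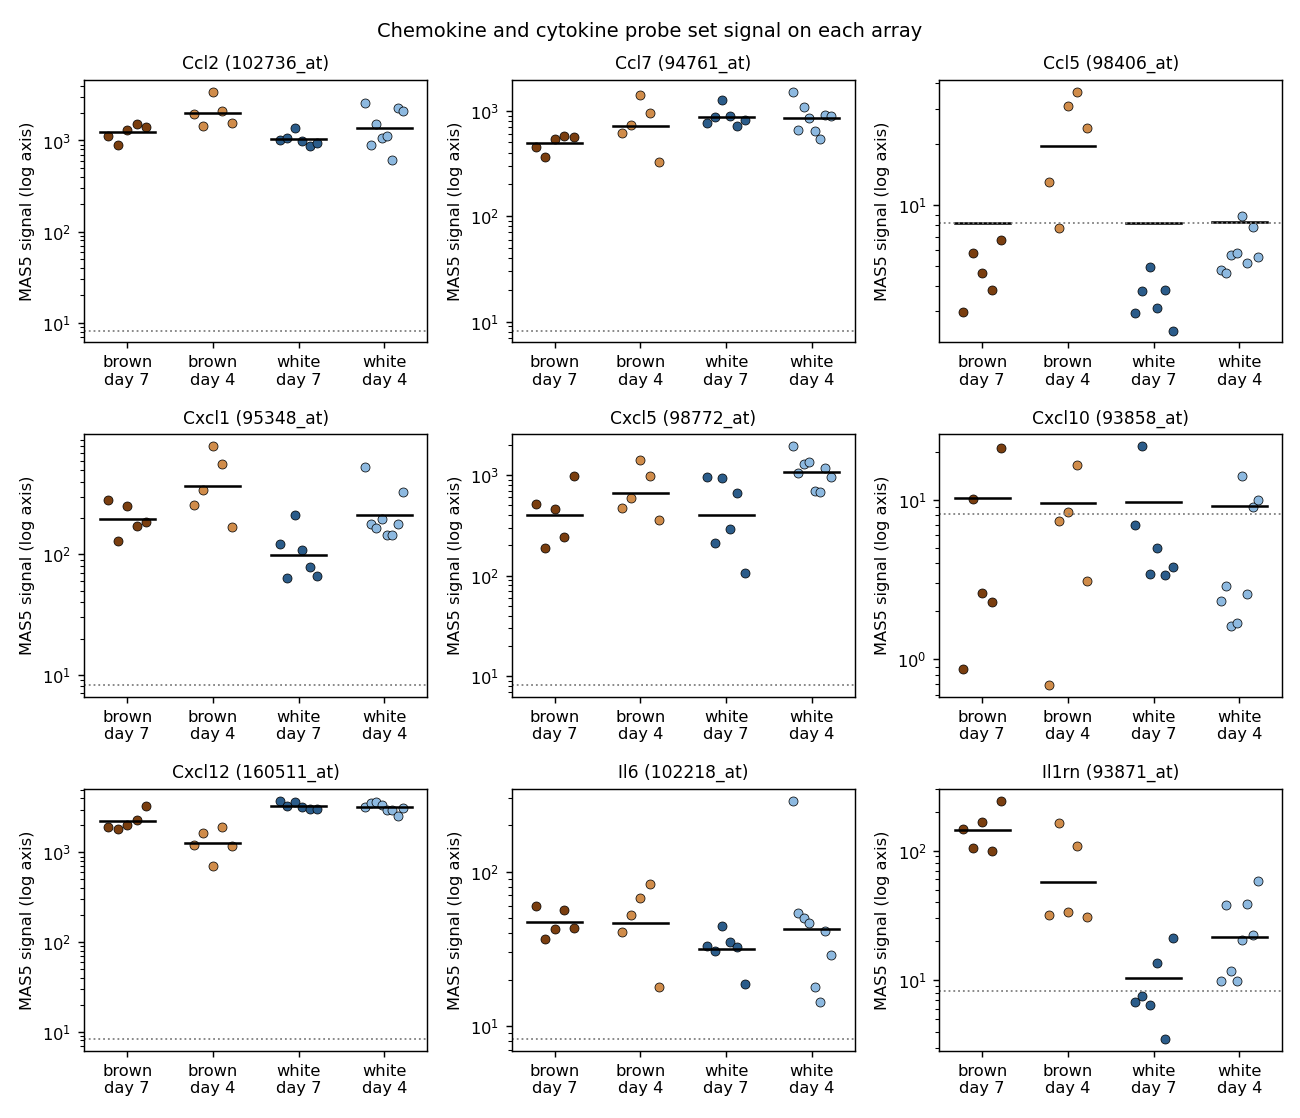
MAS5 signal (vertical log axis, linear intensity units) of 1 probe set for each of the 9 genes in the 4 groups. Points are arrays, the bar is the mean of the floored log2 values and the dotted line is the floor of 8.21. Il1rn is high on the brown day 7 arrays (99.4 to 243) and low on the white day 7 arrays (3.48 to 21.1), and Ccl5 rises above the floor mainly on brown day 4 arrays.

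Cxcl12, the stromal ligand, was lower in brown than in white cells at day 4 and higher in brown day 7 than in brown day 4 cells. Its probe set 160511_at had 1939, 1814, 2036, 2296 and 3268 in brown day 7 cells, against 1208, 1652, 712, 1920.3 and 1181 in brown day 4 cells. The highest day 4 array lay above the lowest day 7 array, so the groups overlapped. The difference was 0.81 ± 0.19 (adjusted p = 0.00429 by limma), a 1.76-fold higher signal in brown day 7 cells. Probe set 100112_at gave 0.78 ± 0.21 (adjusted p = 0.0149) and 162234_f_at gave 0.64 ± 0.24 (adjusted p = 0.0849), so 2 of 3 probe sets were called. Without brown day 4 array 09, which was the lowest of its group on all 3 probe sets, 100112_at gave 0.67 (adjusted p = 0.0561).

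In white cells no Cxcl12 probe set was called between the days. Probe set 160511_at had 3038 to 3783 in white day 7 cells (median 3272) and 2549 to 3680.3 in white day 4 cells (median 3171). The difference was 0.07 ± 0.16 (adjusted p = 0.8), and the other probe sets gave -0.15 ± 0.18 and 0.10 ± 0.20. The ranges of the days overlapped on all 3 probe sets.

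At day 4 every brown array had less Cxcl12 signal on 160511_at (712 to 1920.3) than any white array (2549 to 3680.3). The difference was -1.33 ± 0.17 (adjusted p = 1.76e-06), and 7.25% of all probe sets had groups without overlap in this comparison. The other 2 probe sets agreed in direction, with -1.09 ± 0.19 (adjusted p = 0.000141) for 100112_at and -0.92 ± 0.22 (adjusted p = 0.00276) for 162234_f_at. All 3 calls were kept under each of the 37 alternative settings tried for this comparison. At day 7 probe set 160511_at had 1814 to 3268 in brown against 3038 to 3783 in white cells, and brown array 22 alone reached the white range. The difference was -0.59 ± 0.18 (adjusted p = 0.0165), and without brown day 7 array 08 it was -0.51 (adjusted p = 0.0536). The other probe sets were not called at day 7, with -0.17 ± 0.20 for 100112_at and -0.39 ± 0.23 for 162234_f_at.

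Stromal fibroblast markers differed in both directions in the comparisons where Cxcl12 was called. Summed over the 8 markers on the array, all of them tested, their signal was 11343 to 19004 in brown day 7, 8686 to 10255 in brown day 4, 25527 to 31558 in white day 7 and 13301 to 30359 in white day 4 cells. Of the 8, 3 rose and 1 fell in brown day 7 against brown day 4, beside 6.48% and 6.50% of all genes. At day 4, 5 were lower and 3 higher in brown than in white cells, beside 12.8% and 11.7% of all genes. Thy1 (1.23 ± 0.18), Dlk1 (1.03 ± 0.22) and Cd34 (0.95 ± 0.27), the 3 higher in brown cells at day 4, went against the direction of Cxcl12, and Dlk1 fell by 1.23 in brown day 7 against brown day 4 cells. Col1a1 (-1.71 ± 0.22), Col3a1 (-1.44 ± 0.13) and Col1a2 (-1.22 ± 0.17), among the 5 lower at day 4, had the direction of Cxcl12. The same collagens were the 3 that rose in brown day 7 cells, by 1.23, 1.04 and 0.79. None of the 8 markers lay at the floor throughout a group. Their part in the Cxcl12 differences was not tested.

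Il1rn, the interleukin-1 antagonist, had the largest of the member differences in the 5 comparisons. It had 147, 104, 166, 99.4 and 243 in brown day 7 cells, against 6.77, 7.56, 6.38, 13.5, 3.48 and 21.1 in white day 7 cells. Every brown array lay above every white array, and 4 of the 6 white arrays were at the floor, so the size of the fold depends on the floor. The difference was 3.78 ± 0.48 (adjusted p = 1.61e-06), 13.8-fold at this floor, and groups without overlap held for 18.1% of all probe sets in this comparison. At day 4 Il1rn had 31.9, 164, 33.7, 109 and 30.7 in brown cells, against 9.87 to 58.1 with a median of 21.3 in white cells. Brown arrays 06 and 10 stood above all white arrays and the other 3 lay within the white range. The day 4 difference of 1.41 ± 0.45 (adjusted p = 0.0246) was no longer called without brown day 4 array 06 (1.02, adjusted p = 0.118) or array 10 (1.17, adjusted p = 0.0862). Nor was it called without the filter on low signal (adjusted p = 0.0545) or with only the groups of this comparison fitted (adjusted p = 0.0687).

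Between days, Il1rn was not called in either kind of cell, with 1.34 ± 0.50 (adjusted p = 0.0815) in brown and -1.04 ± 0.43 (adjusted p = 0.0886) in white cells. The brown-minus-white difference of these changes was 2.38 ± 0.66 (adjusted p = 0.152). With the floor raised to the 40th percentile, the brown difference was called (1.34 ± 0.35, adjusted p = 0.0109) and the day 4 difference between brown and white cells was not (0.75, adjusted p = 0.0917). Il1rn lay above the 40th percentile of the array on all 5 brown day 7 and all 5 brown day 4 arrays, on 0 of 6 white day 7 arrays and on 3 of 8 white day 4 arrays. The gene thus passed the filter on low signal through the brown arrays, where it was high. The ligands that Il1rn opposes were near the floor: Il1b was at the floor on all 10 brown arrays, on 4 of 6 white day 7 arrays and on 7 of 8 white day 4 arrays, and Il1a did not exceed 22.4 on any array.

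Cxcl1 and Cxcl5, the neutrophil-attracting ligands, were lower in white day 7 than in white day 4 cells. Cxcl1 on 95348_at had 123, 63.3, 214, 109.8, 78.7 and 66.2 in white day 7 cells, against 146 to 537 with a median of 179.8 in white day 4 cells. Only white day 7 array 39 reached the day 4 range. The difference was -1.09 ± 0.33 (adjusted p = 0.0204), and 95349_g_at gave -1.32 ± 0.41 (adjusted p = 0.0249). The 2 Cxcl1 probe sets followed each other across the 24 arrays (Pearson r = 0.969, Spearman rho = 0.965), and the suffix of the second marks probes shared with related sets, so they are not separate evidence.

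Cxcl5 had 960.0, 211, 942, 289, 668 and 106 in white day 7 cells, against 669.8 to 1931 with a median of 1113 in white day 4 cells. Arrays 35 and 39 lay inside the day 4 range, and array 43 just under it. The difference was -1.44 ± 0.43 (adjusted p = 0.0193), a 2.72-fold lower signal at day 7. Both Cxcl1 probe sets and Cxcl5 were no longer called without white day 7 array 36 (adjusted p = 0.0619, 0.066 and 0.0607) or without array 44 (adjusted p = 0.0558, 0.0728 and 0.0698), the 2 lowest arrays of their group on these probe sets.

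In brown cells the same ligands overlapped between days. Cxcl1 on 95348_at had 285, 129, 254, 173 and 187 at day 7, against 259, 344, 794, 566 and 171 at day 4 (-0.90 ± 0.38, adjusted p = 0.134). Cxcl5 had 509, 189, 455, 243 and 985 at day 7, against 471, 586, 1399, 970.2 and 358 at day 4 (-0.73 ± 0.50, adjusted p = 0.388). Neither was called, and the brown-minus-white difference of the changes was 0.19 ± 0.50 for Cxcl1 and 0.71 ± 0.66 for Cxcl5. Between cell types at day 7, Cxcl1 was higher in brown cells by 1.0 ± 0.37 on 95348_at (adjusted p = 0.0467) and by 1.34 ± 0.46 on 95349_g_at (adjusted p = 0.0323), and Cxcl5 differed by 0.02 ± 0.48. The 95348_at call was kept under 21 of 37 alternative settings and the 95349_g_at call under 31 of 37.

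Ccl2 and Ccl7, the monocyte-attracting pair, lay above the 40th percentile of the array on all 24 arrays. Ccl2 had 1115, 900.4, 1293, 1530.5 and 1399 in brown day 7 cells, against 1937, 1433, 3433, 2114 and 1539 in brown day 4 cells. Day 4 array 06 alone fell within the day 7 range, and the difference was -0.70 ± 0.29 (adjusted p = 0.131). In white cells Ccl2 had 873 to 1380.3 at day 7 (median 1000.2) and 605 to 2564 at day 4 (median 1321), a difference of -0.40 ± 0.25 (adjusted p = 0.283). Brown and white cells differed by 0.54 ± 0.27 at day 4 (adjusted p = 0.152) and 0.25 ± 0.28 at day 7 (adjusted p = 0.573). Ccl2 was thus called in no comparison.

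Ccl7 was lower in brown than in white cells at day 7. It had 449, 364, 535, 573 and 566 in brown day 7 cells, against 758, 874, 1277, 898, 722 and 814 in white day 7 cells. No brown array reached a white one, and the difference was -0.83 ± 0.27 (adjusted p = 0.0218), a 1.78-fold lower signal in brown cells. It was no longer called without brown day 7 array 08 (adjusted p = 0.0667) or white day 7 array 39 (adjusted p = 0.0584). At day 4 the brown arrays had 614, 725, 1398, 955 and 326, against 545 to 1516 with a median of 878 on the white arrays, and the difference was -0.23 ± 0.25 (adjusted p = 0.549). Between days Ccl7 differed by -0.55 ± 0.28 in brown cells (adjusted p = 0.212) and 0.05 ± 0.24 in white cells.

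With arrays compared within blocks of 4 adjacent numbers, an alternative added after the data were seen, Ccl7 in brown cells was called at -0.89 ± 0.21 (adjusted p = 0.00553), Ccl2 at -0.84 ± 0.26 (adjusted p = 0.0316) and Cxcl1 on 95348_at at -1.16 ± 0.37 (adjusted p = 0.0361). Brown day 7 array 22 and brown day 4 array 19 have no partner in such a block. All 3 were lower at day 7. With unbroken runs of numbers as the block, Ccl7 was called (-0.89 ± 0.27, adjusted p = 0.0271), while Ccl2 (adjusted p = 0.0969) and Cxcl1 on 95348_at (adjusted p = 0.0594) were not. In brown cells arrays 05 to 12 form 1 run, so this block only sets arrays 19 and 22 apart. Leaving out array 19 alone, Ccl7 was called at -0.84 (adjusted p = 0.0299) and Cxcl1 on 95348_at at -1.18 (adjusted p = 0.0499).

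Macrophages are a known source and target of these ligands. The summed signal of macrophage markers, over 15 markers on the array of which 10 were tested, was 712 to 944 in brown day 7, 574 to 669 in brown day 4, 894 to 1561 in white day 7 and 677 to 1908 in white day 4 cells. Of the 10, 1 rose in brown cells and 3 rose in white cells at day 7, beside 6.48% and 9.03% of all genes. In brown against white cells 3 were lower at day 4 and 4 at day 7, beside 12.8% and 12.3% of all. Lyz2 rose by 2.21 ± 0.48 in brown and by 2.24 ± 0.41 in white cells, where Ctss (1.24 ± 0.38) and C1qa (1.27 ± 0.43) rose too. Csf1r was lower in brown than in white cells at day 4 (-1.24 ± 0.21) and at day 7 (-0.96 ± 0.23). Adgre1, a defining macrophage marker, had at most 16.3 on any array, and Ptprc, the pan-leukocyte marker, at most 17.3. Cd14 had 358 to 435 in brown day 7, 264 to 346 in brown day 4, 532 to 768 in white day 7 and 382 to 863 in white day 4 cells. The part of macrophages in the Ccl7 difference at day 7 was not tested.

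Ccl5, a ligand for T cells and monocytes, was detected mainly in brown day 4 cells. It had 2.99 to 6.72 in brown day 7 cells, all under the floor, against 13.1, 7.7, 31, 36.4 and 24.1 in brown day 4 cells, where 1 of 5 lay under it. It was under the floor on all 6 white day 7 arrays and on 7 of 8 white day 4 arrays, the highest of which had 8.87. In a fit without the filter on low signal, over 12422 probe sets, Ccl5 was lower in brown day 7 than in brown day 4 cells (-1.26 ± 0.25, adjusted p = 0.00343) and higher in brown than in white cells at day 4 (1.24 ± 0.22, adjusted p = 0.000626), and both sizes depend on the floor. After flooring, the SD of its log2 signal was 0.90 in brown day 4 cells, 0.04 in white day 4 cells and 0 in both day 7 groups. The standard errors and p-values pool the spread of all groups, so they do not measure that of brown day 4 cells. Ccl5 and its groups were at the low end of the array, where MAS5 values are noisy.

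Il6 and Cxcl10 did not separate any groups. Il6 had 59.6, 36.7, 42.6, 56.6 and 43.4 in brown day 7 cells and 40.8, 52.5, 67.3, 82.6 and 17.9 in brown day 4 cells, a difference of 0.02 ± 0.52 (adjusted p = 0.989). It had 18.7 to 44.4 in white day 7 cells and 14.5 to 287 in white day 4 cells, where array 33 had the 287 and the next highest array 54.2. The white difference was -0.44 ± 0.44 (adjusted p = 0.525). Cxcl10 had 0.869 to 21.1 in brown day 7, 0.69 to 16.6 in brown day 4, 3.39 to 21.7 in white day 7 and 1.61 to 14.1 in white day 4 cells. It lay at the floor on 16 of 24 arrays, and no difference could be shown at that signal.

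**Figure D2:**
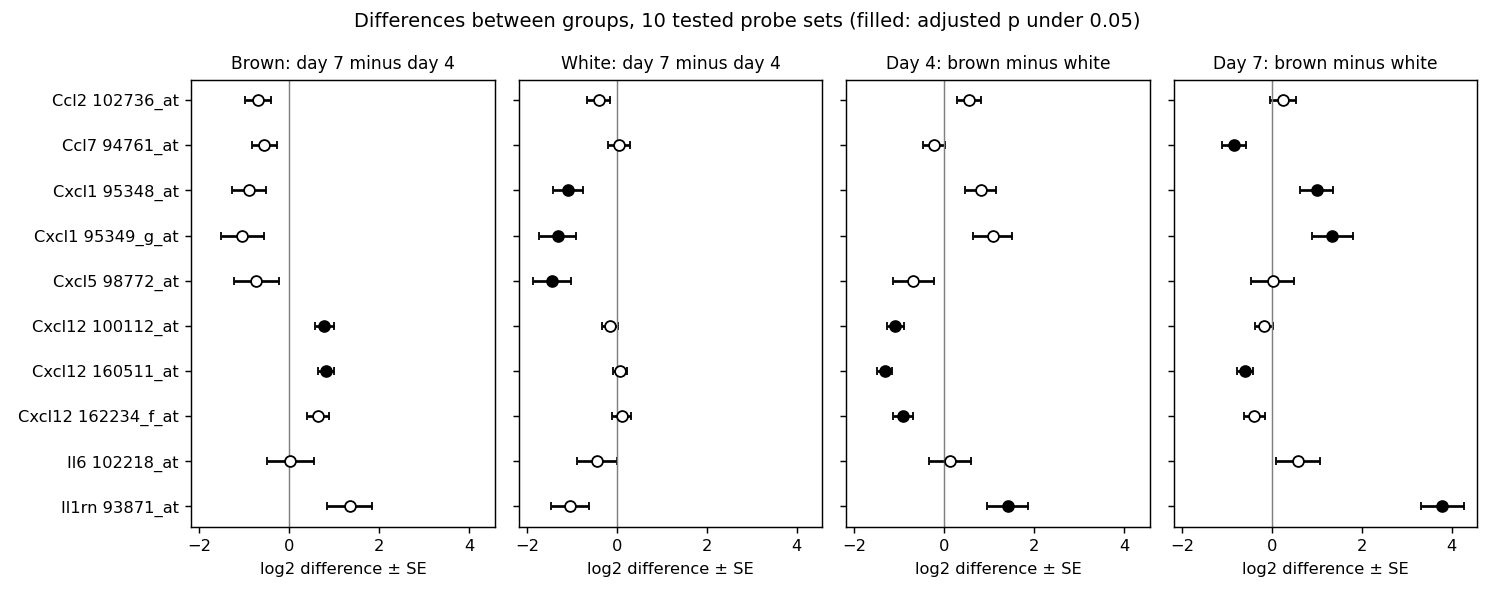
Log2 difference (horizontal axis) of the 10 tested probe sets in the 4 comparisons, with bars for the standard error and filled points for an adjusted p under 0.05. The 3 Cxcl12 probe sets lie left of 0 in brown against white at day 4 (-1.33 to -0.92), Cxcl1 and Cxcl5 lie left of 0 in white cells (-1.44 to -1.09), and Il1rn reaches 3.78 in brown against white at day 7.

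The day 7 against day 4 changes were also compared between brown and white cells. By limma 0 of 10 member probe sets were called in that comparison, against 0.214% of all probe sets (18 of 8397), and 3 of 10 had an unadjusted p under 0.05. These were Il1rn (2.38 ± 0.66), Cxcl12 on 100112_at (0.93 ± 0.28, adjusted p = 0.204) and Cxcl12 on 160511_at (0.74 ± 0.24, adjusted p = 0.286). All 3 differences were positive, a larger day 7 minus day 4 value in brown cells. Without white day 4 array 51, which had the lowest 100112_at signal of its group, that probe set of Cxcl12 was called at 1.07 (adjusted p = 0.0422).

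A sign of RNA quality differed between groups. The ratio of the 3′ to the 5′ Gapdh control probe sets was 0.889 ± 0.0379 in brown day 7, 0.884 ± 0.0825 in brown day 4, 1.36 ± 0.204 in white day 7 and 0.943 ± 0.0955 in white day 4 cells (SD, n = 5, 5, 6 and 8). It was higher in white day 7 than in white day 4 cells (exact permutation p = 0.00133, adjusted over 4 comparisons 0.00533), and lower in brown than in white cells at day 7 (exact permutation p = 0.00433, adjusted 0.00866). With the ratio as a covariate, none of the member calls in these 2 comparisons was kept, and calls were fewer over the whole array too. In white cells between days 37 of 8397 probe sets were called with the covariate and 1595 without it, and in brown against white cells at day 7 the counts were 274 with it and 2112 without it. Il1rn at day 7 was 1.66 ± 0.67 (adjusted p = 0.188), Ccl7 -1.06 ± 0.46 (adjusted p = 0.234), and Cxcl5 in white cells -2.16 ± 0.72 (adjusted p = 0.172). In white cells the ratio tracked the day and at day 7 it tracked the cell type, so their parts cannot be told apart in these comparisons. At day 4 brown and white ratios differed by -0.06 (exact permutation p = 0.277), and with the covariate the 4 member calls of that comparison were kept.

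Within groups, Ccl2, Ccl7, Cxcl1, Cxcl5 and Il6 varied together from array to array. Each array's deviation from its group mean was compared for 21 pairs of the 7 tested genes over 24 arrays. Each gene was read by its probe set of highest mean signal, 95348_at for Cxcl1 and 160511_at for Cxcl12. Of the 10 pairs among these 5 genes, 9 had an adjusted permutation p under 0.05 for both r and rho. The exception was Ccl2 with Il6 (r = 0.583, adjusted permutation p = 0.0566, and r = 0.258 without the 2 arrays farthest from the median of Ccl2). Ccl2 and Ccl7, which neighbour each other in the genome, had a Pearson r of 0.768 (permutation p = 0.00014, adjusted over the 21 pairs 0.00063) and a Spearman rho of 0.836 (permutation p = 2e-05, adjusted 0.00042). Ccl7 and Cxcl1 had an r of 0.798 (permutation p = 5e-05, adjusted 0.000525) and a rho of 0.729 (permutation p = 0.00017, adjusted 0.00119). Cxcl1 and Cxcl5 had an r of 0.692 (permutation p = 0.00025, adjusted 0.000875) and a rho of 0.754 (permutation p = 8e-05, adjusted 0.00084). Ccl7 and Il6 had an r of 0.758 (permutation p = 0.00015, adjusted 0.00063) and a rho of 0.665 (permutation p = 0.00239, adjusted 0.00837). All points share their arrays, so labelling and hybridisation are common to both genes of a pair, and the part of these was not tested. The share of such pairs among all genes was not computed, so the count cannot be read as particular to these genes.

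The 4 relations given here were positive within both kinds of cell and without the 2 arrays farthest from the median of the first-named gene. Arrays extreme only for the second gene stayed in, such as white day 4 array 33, the highest for Il6, in Ccl7 and Il6. For Ccl2 and Ccl7, r was 0.802 in brown and 0.827 in white cells, and 0.698 without the 2 arrays farthest from the median of Ccl2. For Ccl7 and Cxcl1, r was 0.875 in brown and 0.739 in white cells, and 0.714 without 2 arrays. For Cxcl1 and Cxcl5, r was 0.764 in brown and 0.646 in white cells, and 0.648 without 2 arrays. For Ccl7 and Il6, r was 0.864 in brown and 0.799 in white cells, and 0.767 without 2 arrays. Cxcl12 on 160511_at and Il1rn had no pair past the threshold. The deviations of 160511_at had an r of only 0.475 with those of 100112_at and 0.531 with those of 162234_f_at. These other Cxcl12 probe sets were not compared with the other genes. The r of Cxcl12 with the other 6 genes ran from -0.18 (Ccl2) to 0.363 (Il1rn), and that of Il1rn with the other inflammatory genes from -0.265 (Il6) to -0.00289 (Cxcl1), with adjusted permutation p-values of at least 0.336 for r and 0.187 for rho. Without white day 4 array 33 and brown day 4 array 09, r was 0.566 for Ccl7 and Cxcl12 and 0.568 for Cxcl5 and Cxcl12, so the low values for Cxcl12 rest partly on these arrays.

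**Figure D3:**
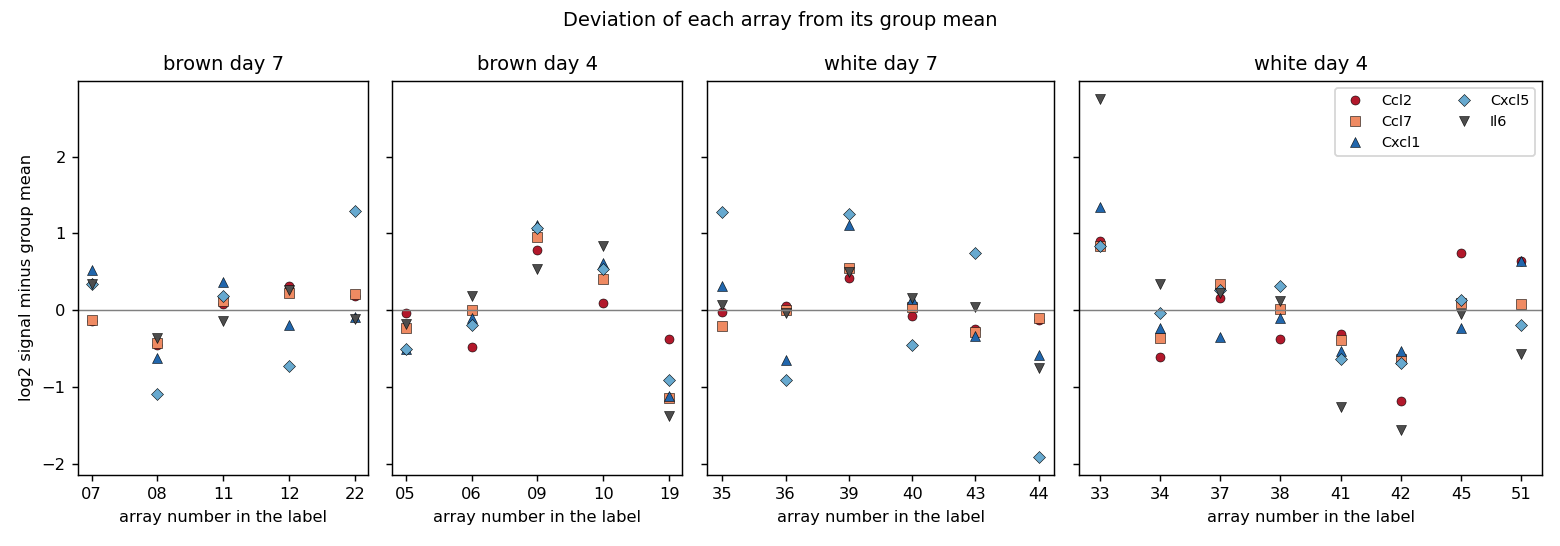
Deviation of each array from its group mean (vertical axis, log2 signal) for 5 genes, by the number in the array's label, in the 4 groups. White day 4 array 33, brown day 4 array 09 and white day 7 array 39 are among those above their group mean for all 5 genes. Brown day 4 array 19, brown day 7 array 08 and white day 4 array 42 are among those below it for all 5.

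Arrays above their group mean for all 5 genes included white day 4 array 33, brown day 4 array 09 and white day 7 array 39. Those below it for all 5 included brown day 4 array 19, brown day 7 array 08 and white day 4 array 42. Array 33 was the highest of its 8-array group on 6 of the 10 member probe sets, which were those of Ccl2, Ccl7, both Cxcl1 sets, Cxcl5 and Il6. Array 09 was the highest of its 5-array group on 5 probe sets and the lowest on the 3 Cxcl12 sets. Array 19 was the lowest of its group on 6. Brown day 7 array 08 was the lowest of its group on 9 of the 10 member probe sets, and white day 7 array 39 the highest of its group on 7. These counts were not made over all probe sets, so they cannot be read as a trait of these genes. The macrophage marker sum of array 33 was 986, inside the range of the other white day 4 arrays (677 to 1908), and that of array 09 was 574, the lowest brown day 4 array. The endothelial marker sum of array 09 was 2748, the highest of the 24 arrays, where the other brown day 4 arrays had 1467 to 2165, and its mesothelial marker sum of 171 was the highest of its group. Their part in the pattern was not tested. Without arrays 33 and 09, r over the 10 pairs of the 5 genes ran from 0.290 (Ccl2 and Cxcl5) to 0.747 (Ccl7 and Il6). It was 0.402 for Ccl2 and Il6 and 0.440 for Ccl2 and Cxcl1 and for Ccl7 and Cxcl5, and 0.646 for Ccl2 and Ccl7, 0.671 for Ccl7 and Cxcl1 and 0.643 for Cxcl1 and Cxcl5.

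A second pattern followed the array numbers at day 7. The labels number many arrays of a group in adjacent pairs, such as 35 and 36, without saying what the numbers stand for. At day 7, in all 5 such pairs the odd-numbered array had the higher signal for Cxcl1 on both probe sets, for Cxcl5 and for Cxcl12 on 100112_at. Cxcl12 on 160511_at and on 162234_f_at was so in 4 of 5 pairs, with brown arrays 11 and 12 the exception on both. Cxcl5 had 960.0 on white array 35 and 211 on 36, 942 on 39 and 289 on 40, and 668 on 43 and 106 on 44. In brown cells it had 509 on array 07 and 189 on 08, and 455 on 11 and 243 on 12. That is 4 of 10 member probe sets, where 7.86% of all 8397 were higher on the odd array in all 5 pairs and 6.85% on the even array. At day 4, Ccl2 alone was higher on the odd array in all 5 pairs (1 of 10, against 8.11% of all), and Cxcl5 was so in 3 of 5. With odd or even number as a covariate, 3 of 10 member probe sets were called in white cells between days and 5 of 10 in brown against white cells at day 7, as without it, where 1538 and 2157 of all 8397 probe sets were called.

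**Figure D4:**
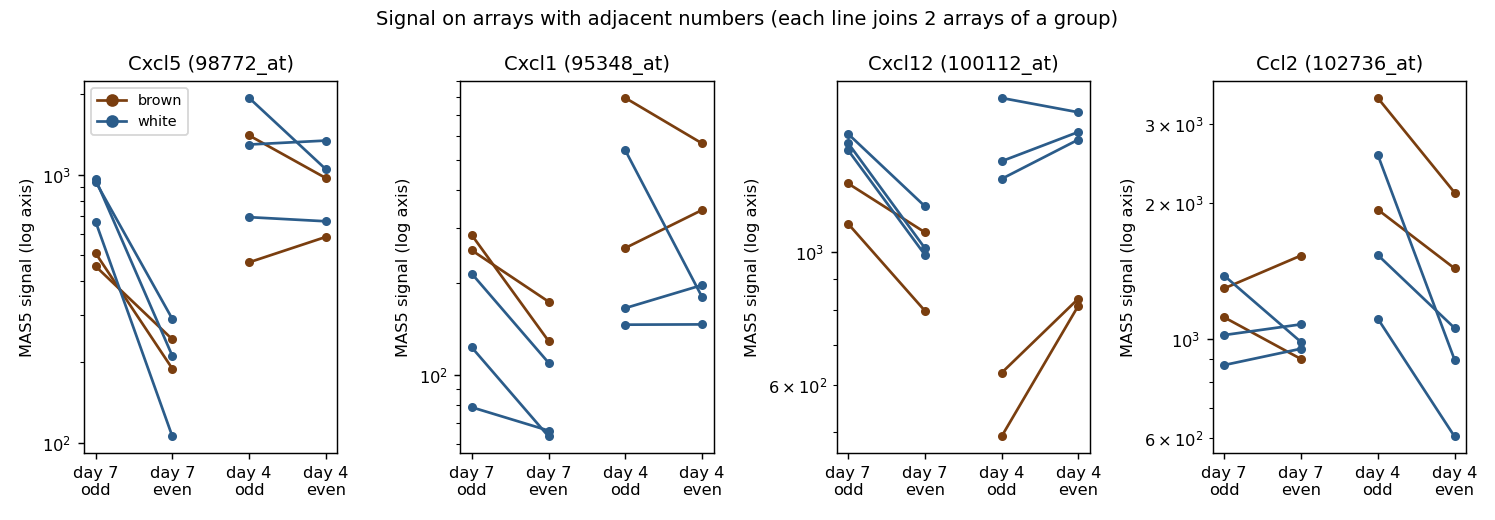
Signal (vertical log axis, MAS5 units) of 4 probe sets on arrays with adjacent numbers, odd left and even right, for day 7 and day 4; each line joins 2 arrays of a group, brown or white by colour. At day 7 all 5 lines of Cxcl5, Cxcl1 and Cxcl12 (100112_at) go down to the even array, and at day 4 all 5 lines of Ccl2 do. Cxcl12 on 160511_at and 162234_f_at, not drawn, was lower on the even array in 4 of 5 day 7 pairs.

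Other chemokine ligands were tested for 12 of 18 genes on the array. In brown day 7 against brown day 4 cells, 2 of 12 were higher and 0 lower, beside 6.48% and 6.50% of all genes. Ccl8, a monocyte-attracting ligand, had 234 to 488 in brown day 7 and 57.9 to 119 in brown day 4 cells (1.69 ± 0.52, adjusted p = 0.0328). Ccl11, the eosinophil-attracting eotaxin that neighbours Ccl7 in the genome, had 49 to 81.8 in brown day 7 and 25.9 to 32.5 in brown day 4 cells (1.12 ± 0.29, adjusted p = 0.0118). These CC ligands were thus higher at day 7, while Ccl2 and Ccl7 had negative differences that were not called. In white cells 1 of 12 was higher at day 7, beside 9.03% of all genes: the B cell ligand Cxcl13, with 25.5 to 103 at day 7 and 5.3 to 43 at day 4 (1.16 ± 0.38, adjusted p = 0.0331). Cxcl13 was lower in brown than in white cells at day 7 (-2.44 ± 0.43, adjusted p = 0.000136), where 4 of 5 brown arrays were at the floor. Cx3cl1, the membrane-tethered fractalkine, was higher in brown than in white cells at day 4 by 0.88 ± 0.22 (adjusted p = 0.00378).

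Most chemokine receptors did not pass the filter on low signal. Of 19 chemokine receptors on the array 6 were tested. Ccr2, the receptor of Ccl2 and Ccl7, had at most 23.8 on any array, Cxcr2, the receptor of Cxcl1 and Cxcl5, at most 28.5, and Cxcr4, the signalling receptor of Cxcl12, at most 33.7. Ackr3, the scavenging receptor of Cxcl12, was measured, with 93.6 to 125 in brown day 7, 59.5 to 145 in brown day 4, 111 to 219 in white day 7 and 99.9 to 260 in white day 4 cells. It was lower in brown than in white cells at day 4 (-0.79 ± 0.22, adjusted p = 0.00972), as Cxcl12 was. Cx3cr1, the receptor of fractalkine, rose in brown day 7 against brown day 4 cells by 0.83 ± 0.21 (adjusted p = 0.00821).

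Receptors for interleukin-1, interleukin-6 and TNF were lower in brown than in white cells, in 6 of 8 tested genes at day 4 and 4 of 8 at day 7, beside 12.8% and 12.3% of all genes. The median difference was -0.78 at day 4 and -0.73 at day 7, against 0.01 and 0.00 over all genes. Il6st, the shared signalling chain of the interleukin-6 family, had 594 to 1048 in brown day 7 and 951 to 1661 in white day 7 cells (-0.77 ± 0.20, adjusted p = 0.00536). Tnfrsf1b, a TNF receptor, had 51.5 to 72.2 in brown day 7 and 119 to 212 in white day 7 cells (-1.45 ± 0.18, adjusted p = 1.42e-06). Il1r2, the interleukin-1 decoy receptor, had 39.7 to 90 in brown day 4 and 92.9 to 164 in white day 4 cells (-1.02 ± 0.26, adjusted p = 0.0052). Il1rn, the other brake on interleukin-1, ran the opposite way.

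Genes of the NF-kB pathway and its inflammatory targets were tested for 26 members of the list. In brown against white cells, 1 was higher and 8 lower at day 4, beside 11.7% and 12.8% of all genes, and 2 were higher and 6 lower at day 7, beside 13.2% and 12.3% of all. Saa3, an acute phase protein of fat, had 612 to 3059 in brown day 4 and 5024 to 10219.9 in white day 4 cells (-2.51 ± 0.25, adjusted p = 2.3e-08). It was also lower in brown than in white cells at day 7 (-1.14 ± 0.26, adjusted p = 0.002) and rose in brown day 7 against brown day 4 cells by 1.89 ± 0.27 (adjusted p = 0.000104). Cxcl12 on 160511_at was called in the same 3 comparisons with the same signs. Cebpd, a transcription factor induced early in fat cell differentiation, fell by 0.97 in brown (adjusted p = 0.00452) and by 1.04 in white day 7 cells (adjusted p = 0.000607). Interferon pathway genes went the other way between cell types, with 9 of 20 higher in brown cells at day 4 and 9 of 20 at day 7, beside 11.7% and 13.2% of all genes, and 2 lower at day 4 and 0 at day 7. Isg15, a ubiquitin-like interferon target, was higher in brown than in white cells at day 4 by 1.31 ± 0.20 (adjusted p = 2.77e-05), while the interferon-induced Cxcl10 stayed near the floor in every group.

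**Figure D5:**
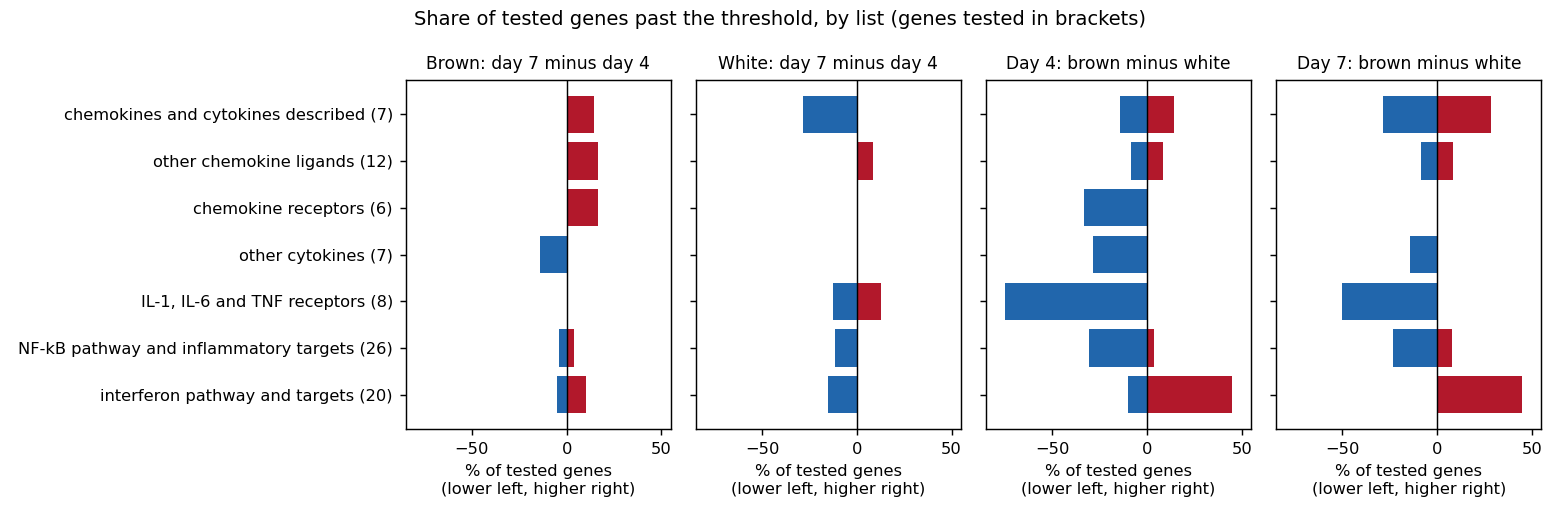
Share of tested genes past the threshold (horizontal axis, percent, lower to the left and higher to the right) for the described genes and 6 related lists in the 4 comparisons, with the number of genes tested in brackets. The interleukin and TNF receptors lie to the left in brown against white cells (6 of 8 at day 4) and the interferon genes to the right (9 of 20).

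The genes whose signal ran most like each member over the 24 arrays were found by Pearson correlation of log2 signal among 6280 other genes, as a description. Each gene was read by its tested probe set of highest mean signal, 160511_at for Cxcl12. Cxcl12 was most like Ctsh, a cathepsin (r = 0.963), Dbn1, an actin-binding protein (r = 0.944), and Saa3 (r = 0.930). Il1rn was most like Lypla1 (r = 0.891), F2rl3 (r = 0.881) and Rfk (r = 0.866). Cxcl5 was most like Ptgr1 (r = 0.844), Ugdh (r = 0.810) and Ptx3, a secreted pentraxin (r = 0.791). Ccl2 was most like Rbbp7 (r = 0.867), Krt19 (r = 0.825) and Cd164 (r = 0.787), and Ccl7 was most like Rraga (r = 0.768), Pfn2 (r = 0.742) and Tpm1 (r = 0.730). Cxcl1 was most like Id1 (r = 0.785), Cdca7 (r = 0.779) and Spdl1 (r = 0.771). Il6 was most like the interferon-inducible Ifi204 (r = 0.794) and Ifi202b (r = 0.719), and Slc35a1 (r = 0.719). The correlations include the differences between the 4 groups, which the arrays of a group share.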

How the data were processed

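Total RNA of 24 samples of cultured fat cells was measured on Affymetrix U74Av2 arrays. The authors deposited 1 linear signal intensity per probe set and array, for which the submitters' processing notes name MAS5, with no version. Detection calls were not used. Each array was scaled to a 2% trimmed mean of 150, signals below 8.21 (the 20th percentile overall) were raised to that floor, and log2 was taken. Of 12488 probe sets, 66 controls were removed, and 8397 above the 40th percentile of their array on at least 5 arrays were tested. Group means were fitted with limma 3.58.1 (lmFit, eBayes with trend) in R 4.3.3, with 20 residual degrees of freedom and two-sided tests. Permutation tests used scipy 1.17.1, with 100000 permutations within groups for correlations (smallest possible p 1e-05). The fit was tested on simulated data. Symbols came from the platform annotation, which names 1 gene for 10855 probe sets, several genes for 396 and no gene for 1237, and the reference table held 10839 of the single names. The members, lists and tests were chosen with earlier results of these data known. Named were all 9 members, the 3 most correlated genes per member, some set marker genes and part of a pool of called genes. That pool held up to 3 called genes per list, comparison and direction with the smallest adjusted p, and not all of it was named. Values of Il1b, Il1a, Ccr2, Cxcr2 and Cxcr4, as the partners of members, were added after their values were seen. Floor, pseudocount, filter, normalization, weights, blocks, covariates and left-out arrays were varied.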

Additional observations from a re-analysis of the deposited data

Results flagged for a closer look

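In 40 groups of a tested probe set and condition, the highest or lowest array was compared with its neighbour and the range of the group, and 2 stood apart, where chance alone picks about 1 in 20 groups. Il6 on white day 4 array 33 was the highest of 8 arrays at 287, while the other 7 had 14.5 to 54.2. Cxcl12 on probe set 100112_at was lowest on white day 4 array 51 at 711, while the other 7 arrays had 1323 to 1806. On the same array, Cxcl12 probe set 160511_at had 3158, inside the range of its group (2549 to 3680.3), and probe set 162234_f_at had 172, the lowest of its group. Array 51 also had the highest macrophage and mesothelial marker sums of its group, at 1908 and 511, and the lowest stromal fibroblast and adipocyte sums, at 13301 and 6301. Its weight in the fit with array weights was the lowest of the 24 arrays, at 0.339. The part of these in the values was not tested.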

How the results depend on the processing

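Over 39 alternatives, 24 of which left out 1 array each, 0 of the called differences of single probe sets changed sign, while 42 of 1900 values, in 10 uncalled differences, did. The number of member probe sets called was 2, 3, 4, 5 and 0 for, in order, the brown days, the white days, brown against white at day 4, the same at day 7, and the interaction. Leaving out 1 array at a time gave 1 to 4, 0 to 4, 3 to 6, 3 to 5 and 0 to 1. Without the filter the white count was 0 and the day 7 count 3, with the Gapdh ratio as a covariate both were 0, and without white day 4 arrays 45 and 51 the white count was 1. The brown count was 6 with array weights and, as alternatives chosen after seeing the data, 5 with blocks of 4 adjacent numbers and 1 without white day 4 array 33 and brown day 4 array 09. The cause of these shifts was not tested.

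The brown day 7 minus day 4 difference of Il6 was -0.12 with the floor at the 40th percentile, -0.0207 on log2(signal + 16), -0.0409 after quantile normalization, -0.10 with array weights, -0.29 with runs of numbers as a block and -0.29 with blocks of 4, and -0.32 to 0.23 without single arrays. Brown against white at day 4 without single arrays, Il6 gave -0.10 to 0.51 and Ccl7 -0.472 to 0.0524. In white cells between days, Ccl7 gave -0.00686 with array weights and -0.0631 to 0.166 without single arrays. Il1rn gave 0.81 with the Gapdh covariate. Cxcl12 on 162234_f_at gave -0.36 with it, -0.0106 with the run block, -0.115 with blocks of 4, -0.11 without arrays 45 and 51, and -0.0106 to 0.203 without single arrays. At day 7 this probe set gave 0.14 with the Gapdh covariate, and Cxcl5 -0.31 with array weights and -0.36 to 0.29 without single arrays. For the brown minus white change, Cxcl1 on 95348_at gave -0.12 with the Gapdh covariate, -0.16 with the run block, -0.13 with blocks of 4 and -0.0866 to 0.468 without single arrays. Cxcl1 on 95349_g_at gave -0.0549 with the run block, -0.12 with blocks of 4 and -0.027 to 0.593 without single arrays. No block could be fitted for brown against white cells, since each block holds 1 kind of cell. No paired analysis was possible because every array has a number of its own and the groups share none. Signal near the floor limits Ccl5, Cxcl10, Il6 and white Il1rn.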

Other observations

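Genes of the cytokine and NF-kB lists not yet described differed between brown and white cells in both directions. Csf1, the growth factor of macrophages, was lower in brown than in white cells at day 4 (-0.71 ± 0.21, adjusted p = 0.0158 by limma) and at day 7 (-1.12 ± 0.22, adjusted p = 0.000512). It fell in brown day 7 against brown day 4 cells by 0.86 (adjusted p = 0.0143). Icam1, an adhesion molecule for leukocytes, was lower in brown than in white cells by -1.28 ± 0.17 at day 4 (adjusted p = 5.66e-06) and by -0.89 ± 0.18 at day 7 (adjusted p = 0.000812). Cebpb, a transcription factor of early fat cell differentiation, was lower in brown cells by a like amount on both days (-0.90 ± 0.13 at day 4 and -0.92 ± 0.14 at day 7). Sod2, the mitochondrial superoxide dismutase, was higher in brown than in white cells at day 4 (0.48 ± 0.16, adjusted p = 0.0318) and at day 7 (0.68 ± 0.17, adjusted p = 0.0043). Nfkb2, an NF-kB subunit, was higher in brown cells at day 7 (0.43 ± 0.15, adjusted p = 0.0326).

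The interferon targets named next were higher in brown than in white cells, as Sod2 and Nfkb2 were. Usp18, which removes Isg15 from proteins, was higher in brown than in white cells at day 4 (1.65 ± 0.31, adjusted p = 0.000362) and at day 7 (1.72 ± 0.33, adjusted p = 0.000389). Irf7, a transcription factor of the interferon response, was higher in brown cells at day 7 (1.17 ± 0.23, adjusted p = 0.000365). Psmb9, an immunoproteasome subunit, was also higher in brown cells at day 7 (1.06 ± 0.24, adjusted p = 0.00213). Of 5 tested endothelial markers, 2 were higher and 0 lower in brown than in white cells at day 7, beside 13.2% and 12.3% of all genes. These were Tie1 (2.68 ± 0.27, adjusted p = 5.81e-08 by limma) and Cdh5 (2.59 ± 0.41, adjusted p = 3.43e-05). The summed signal of the 7 endothelial markers was 1275 to 1752 in brown and 1340 to 1791 in white day 7 cells. Mean log2 signal over all arrays was 10.3 for the marker Eng, 6.41 for Cdh5 and 4.80 for Tie1, so Eng weighs more in the sum than these. The part of these markers in the differences above was not tested.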
